A study of Homo sapiens with 18 samples.

Results

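The 10 genes described here encode the glucose transporter, the enzymes and the pyruvate gatekeeper of glycolysis: SLC2A1, HK2, PFKP, ALDOA, GAPDH, PGK1, ENO1, PKM, LDHA and PDK1. They were chosen by symbol, as a pathway, with earlier results of these data known. They make up 10 of the 28063 gene rows of each deposited file. All 10 were abundant enough to be among the 12853 genes tested. New RNA was counted in human neuroblastoma cells after SMARCA4, an ATPase of the SWI/SNF (BAF) chromatin remodelling complexes, was inhibited or its degradation was induced.

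The neuroblastoma lines SK-N-DZ, KELLY and IMR-32, all with amplified MYCN and labelled wild type, received 1 uM BRM014 or the same volume of DMSO; BRM014 blocks the ATPase activity of SMARCA4 and its paralogue SMARCA2. IMR-32 cells engineered so that SMARCA4 carries an auxin-inducible degron (SMARCA4-mAID) received ethanol or auxin at 500 uM, in the form of indole-3-acetic acid. All of these 8 groups were given 500 uM of 4-thiouridine (4sU), a nucleoside that enters newly made RNA, for 2 h before harvest, and each group had 2 libraries. Another 2 KELLY libraries came from cells without 4sU. IMR-32 was grown in MEM and the other lines in DMEM, both with serum, so line and medium cannot be told apart. The sources used here state neither the length of treatment nor whether the degron line is 1 clone. Separate cultures are not stated for libraries of the same group, so every p-value reflects only the variation between these libraries, which may be technical.

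Glycolysis splits glucose into pyruvate in the cytosol and yields ATP and NADH without oxygen. Tumour cells often run it at a high rate even with oxygen present and turn pyruvate into lactate, which regenerates the NAD+ that the GAPDH step consumes. Transcription of the pathway is known to be raised by hypoxia-inducible factors, which bind a short core motif, and by MYC family factors, which bind the E-box.

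The genes are scattered over the genome (GRCh38.p14, RefSeq). SLC2A1 lies at chromosome 1, 42925353 to 42958868, and ENO1 on the same chromosome at 8861000 to 8878686. HK2 lies at chromosome 2, 74834127 to 74893359, and PDK1 at chromosome 2, 172555373 to 172724312. PFKP is at chromosome 10, 3067548 to 3136805, ALDOA at chromosome 16, 30064279 to 30070420, and GAPDH at chromosome 12, 6534517 to 6538371. PGK1 is at chromosome X, 78104248 to 78129295, PKM at chromosome 15, 72199029 to 72231591, and LDHA at chromosome 11, 18394563 to 18408425. Counts are given per gene with no split by exon, and the part of a gene that was counted is not stated.

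Promoter windows are shown for 3 members, HK2 and PFKP, which were among the genes that fell, and PDK1, which was not. RefSeq (GRCh38.p14) lists 18 starts for the 10 members, and each window is the 250 bases before a start. The 3 printed windows overlap no GENCODE 29 exon: chr2:74834920-74835169 (HK2), chr10:3068939-3069188 (PFKP) and chr2:172555123-172555372 (PDK1), all on the plus strand, 5′ to 3′. HK2 and PFKP have further starts upstream of these windows, so the windows lie within the annotated span of the gene, and the PFKP window is the 1 of its 4 that holds ACGTG. Capitals mark CACGTG (the E-box), ACGTG and GCGTG (the hypoxia response core) on either strand.
HK2: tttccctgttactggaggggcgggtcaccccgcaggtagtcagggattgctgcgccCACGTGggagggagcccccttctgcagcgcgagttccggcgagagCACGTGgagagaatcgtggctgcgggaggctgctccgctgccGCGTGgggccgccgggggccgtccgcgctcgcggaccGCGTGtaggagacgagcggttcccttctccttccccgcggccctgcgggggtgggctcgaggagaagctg
PFKP: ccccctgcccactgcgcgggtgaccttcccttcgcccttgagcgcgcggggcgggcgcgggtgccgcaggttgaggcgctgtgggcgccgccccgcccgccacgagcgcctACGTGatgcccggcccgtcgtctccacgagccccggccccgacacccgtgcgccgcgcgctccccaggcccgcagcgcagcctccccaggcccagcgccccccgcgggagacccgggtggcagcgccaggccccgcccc
PDK1: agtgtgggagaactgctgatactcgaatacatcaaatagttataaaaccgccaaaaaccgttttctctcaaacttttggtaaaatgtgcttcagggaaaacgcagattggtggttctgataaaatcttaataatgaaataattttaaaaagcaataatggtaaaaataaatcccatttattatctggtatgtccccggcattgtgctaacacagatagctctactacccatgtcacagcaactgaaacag

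The HK2 window holds 2 E-boxes and 2 copies of GCGTG, the PFKP window 1 ACGTG and the PDK1 window none of these letters. Over all windows, the E-box CACGTG, which contains ACGTG on both strands, was in 4 of 18 member windows, in HK2, ALDOA, GAPDH and LDHA, against 6.34% of 35116 RefSeq windows and 8.35% of the 14518 windows of tested genes. ACGTG was in 10 of 18, against 18.5% and 22.4%, and GCGTG in 6 of 18, against 32.2% and 43.7%. At least 1 of these cores stood in 13 of 18 windows, against 43.2% and 55.3%. SLC2A1 and PKM held neither, and both fell with BRM014. PGK1 held both cores and the other PDK1 window held ACGTG, and neither gene was called in any treatment comparison. The shorter window was taken after the listed 300 bases, which run past the start, had been searched. Over those, 15 of 18 member windows and 48.4% of all windows held a core, with all 10 members among them, SLC2A1 and PKM included. These are matches of letters, not bound sites, and a part of the motifs in the changes was not tested.

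The labelled libraries held 724913 to 1740475 gene counts. The BRM014 libraries of IMR-32 (741970 and 775064) and SK-N-DZ (724913 and 758288) were shallower than their DMSO libraries (1148208 to 1740475), so their values carry more counting error; in KELLY BRM014 (1505376 and 1512030) this was not so. Levels are in CPM, counts scaled to a common total of gene counts. A set of 6 adrenergic neuroblastoma markers summed to 1530.1 to 4028 CPM per group, though DBH and TH were at 0 in some libraries. Markers of Schwann, blood, endothelial and epithelial cells summed to at most 6.87 CPM, with S100B, CD3E and PECAM1 at 0 in every group. The 4 mesenchymal markers summed to 12.7 to 237 CPM, highest in SK-N-DZ. Most of that sum was FN1, at 181 CPM with DMSO and 237 with BRM014 in SK-N-DZ. COL1A1, COL1A2 and PRRX1 were at most 1.35 CPM in every group. SMARCA4 RNA read 724.5 and 842 CPM in the ethanol and 644 and 584 in the auxin libraries of the degron line, against 85.5 and 102 CPM in IMR-32 DMSO. The degron acts on the protein, so these RNA counts do not check its loss.

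Without 4sU the members were almost uncounted. The unlabelled KELLY libraries held 14 and 8 counts over the 10 genes, together 0.285% of the 7726 in the 2 labelled KELLY DMSO libraries, against 0.348% for all gene rows. GAPDH gave 5 and 4 counts and PKM 6 and 2, and SLC2A1, PGK1, ENO1 and PDK1 gave 0. For PDK1, with 62 counts in those 2 libraries, a count of 0 allows a background of up to 5.95% (exact Poisson 95% interval, counting error only, not scaled for sequencing depth).

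The members' share of new RNA was lower with BRM014 in every line. The 10 genes summed to 2662 and 2689 CPM in IMR-32 DMSO and 1501 and 1611 with BRM014. In KELLY the sums were 2719 and 2752 against 1596 and 1485, and in SK-N-DZ 2933 and 3047 against 1355 and 1418. The degron line gave 2711 and 2946 CPM with ethanol and 2112 and 2070 with auxin. In each of the 4 settings both treated libraries lay under both vehicle libraries. The auxin libraries lay nearer to their vehicle than the BRM014 libraries did. In bulk samples, fewer cells with a gene on and less RNA per cell cannot be told apart, and CPM are relative to the other genes.

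**Figure D1:**
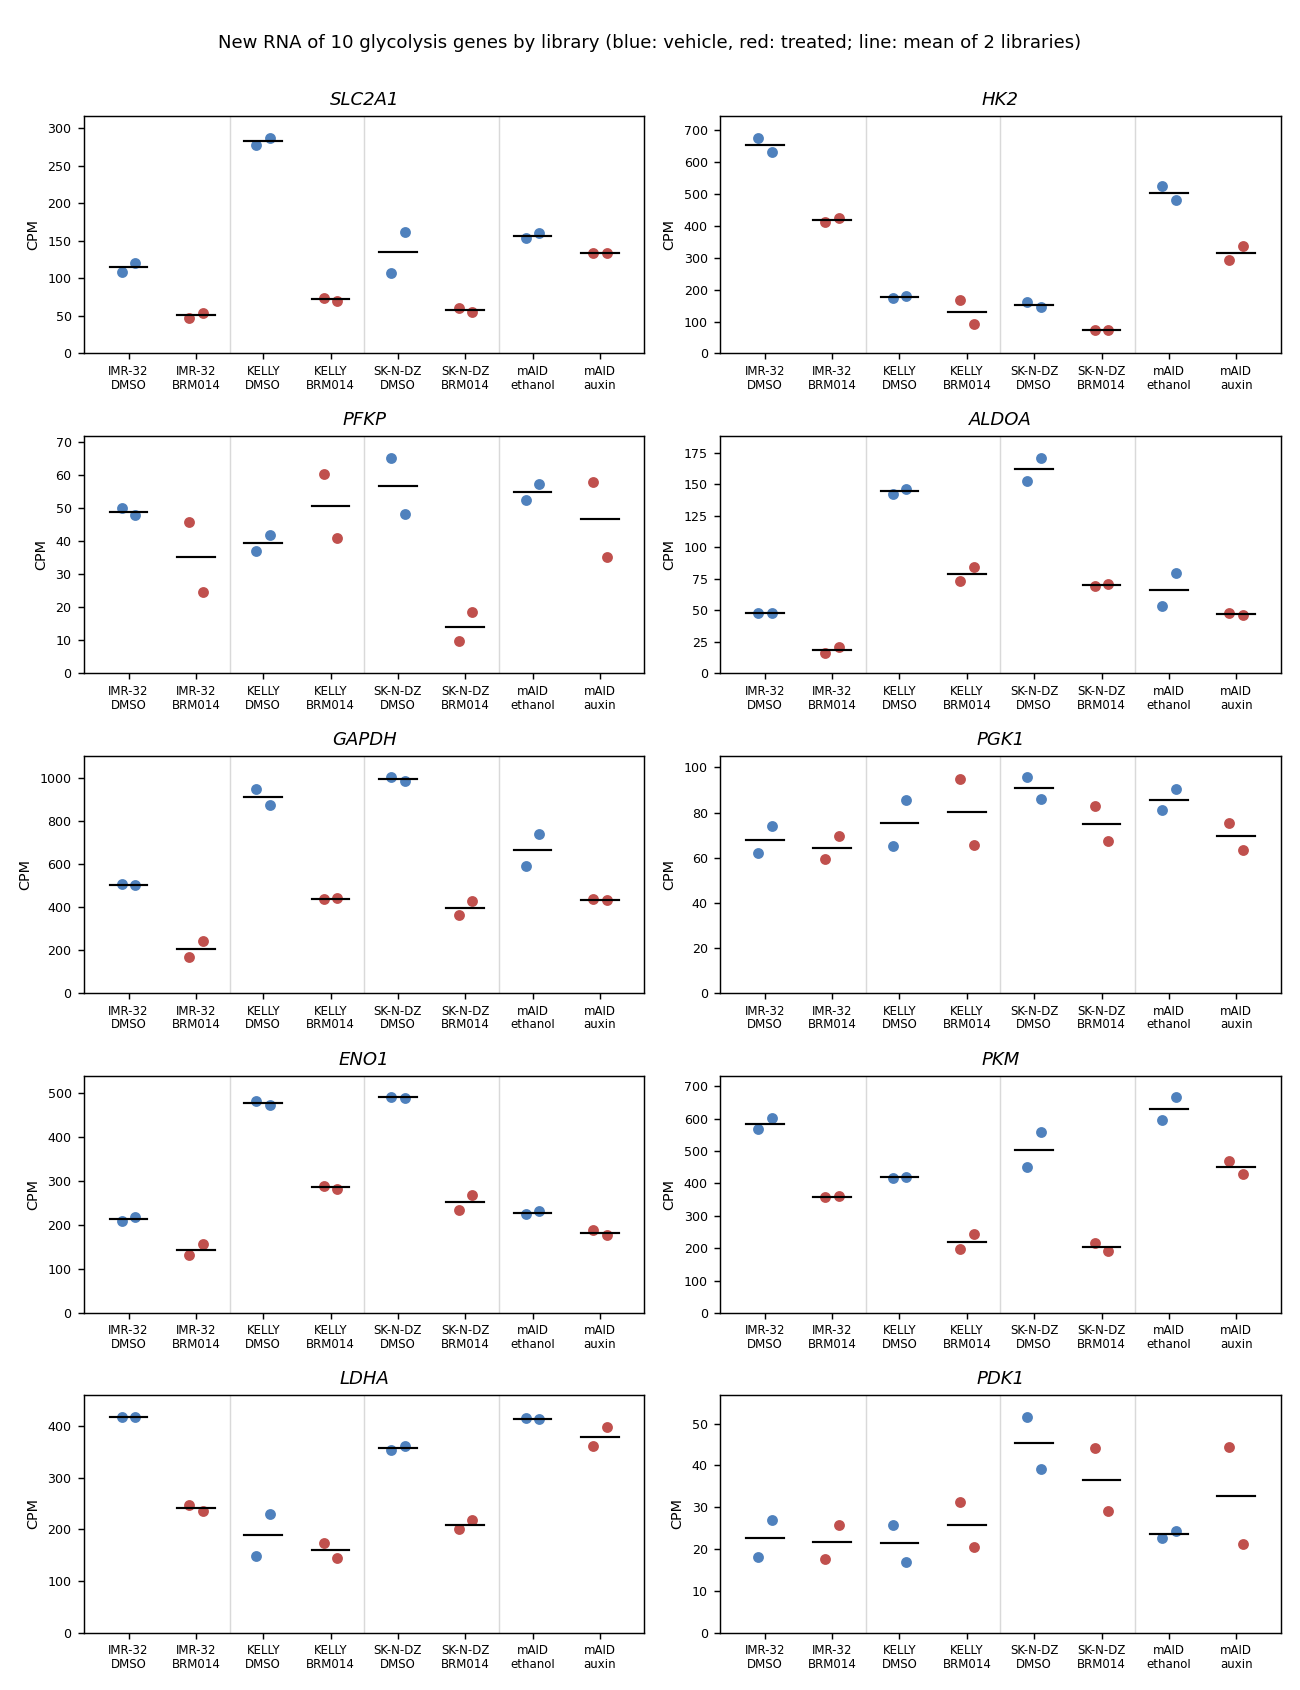
CPM (scaled gene counts) of each of the 10 genes in each labelled library: points are libraries, blue for vehicle and red for treated, and black lines are means of 2 libraries. GAPDH, ENO1 and PKM sit lower with BRM014 in all 3 lines, while the PGK1 points of vehicle and BRM014 overlap in IMR-32 and KELLY.

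Counted gene by gene, 7 of 10 members fell with BRM014 in IMR-32, 5 of 10 in KELLY and 8 of 10 in SK-N-DZ, and 3 of 10 fell with auxin. A gene is said to have fallen or risen at a Benjamini-Hochberg adjusted p below 0.05 by the quasi-likelihood test of edgeR over all 12853 genes. Separation of the libraries alone was not a call. With auxin SLC2A1, ALDOA, PGK1, ENO1 and LDHA were also separated, at adjusted p of 0.715, 0.41, 0.705, 0.239 and 0.799 by edgeR. How many of all tested genes were separated was not counted. Over all tested genes the share that fell was 6.57% in IMR-32, 4.98% in KELLY, 9.55% in SK-N-DZ and 1.16% with auxin, and the share that rose was 6.26%, 6.57%, 9.88% and 1.03%. As the members were chosen with earlier results of these data known, the shares are a description and not a test of the set. No member rose in any of these 4 comparisons by edgeR, none did at an unadjusted p below 0.05, and none did with DESeq2. The median log2 change of the members was -0.62 in IMR-32, -0.55 in KELLY, -1.12 in SK-N-DZ and -0.32 with auxin, where the median of all tested genes was -0.02, 0, -0.04 and 0.

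A property of the transcripts moved with these changes. Transcripts rich in G and C read lower after BRM014 in general: genes with under 45% GC had a median log2 change of 0.15 in IMR-32, 0.15 in KELLY and 0.25 in SK-N-DZ. Genes with 55% or more had -0.40, -0.32 and -0.52 in the same order. With auxin these medians were 0.06 and -0.11. Among the members, PFKP (58.1%), ALDOA (60.1%), GAPDH (58.8%), ENO1 (58.9%) and PKM (58.6%) are in the GC-rich class, SLC2A1 has 54.8% and HK2 51.2%, and LDHA (44%), PGK1 (43.3%) and PDK1 (39.8%) are in the GC-poor class. The part of GC content in the members' changes was not tested as a cause. The fit was repeated with an offset per library for GC content and transcript length, possible for 12519 tested genes. The number that fell was then 4 in IMR-32, 4 in KELLY, 6 in SK-N-DZ and 3 with auxin, against 4.99%, 4.94%, 6.06% and 1.19% of those genes. Values with this offset are given beside a member where they end or give a call, or move a called fold by over 1.5 times on the linear scale. Among changes that were not called, the sign turned with it for PFKP (-0.43 to 0.10) and PDK1 (0.01 to -0.16) in IMR-32 and for PGK1 (0.14 to -0.04) and PDK1 (0.30 to -0.04) in KELLY.

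**Figure D2:**
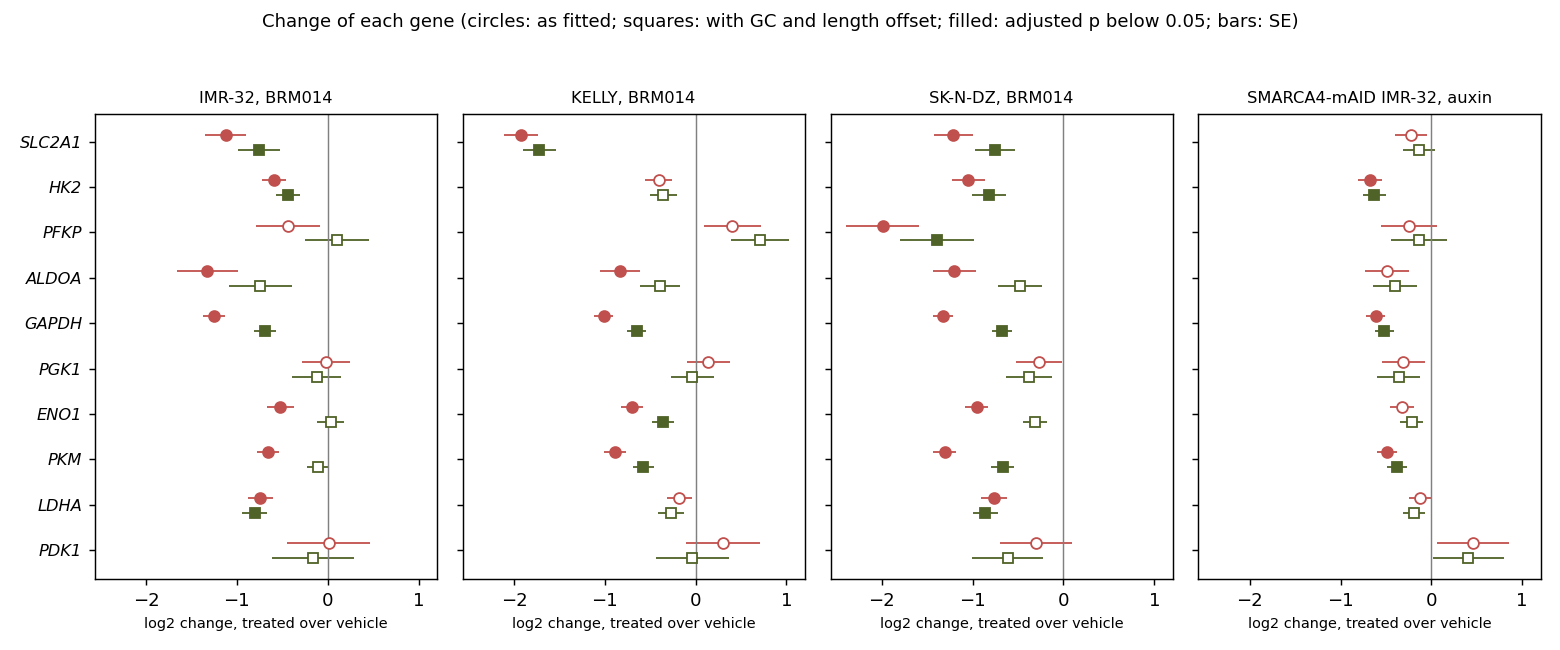
Log2 change of each gene, treated over vehicle, in the 4 treatment comparisons: circles are the edgeR fit, squares the fit with an offset for GC content and transcript length, bars are standard errors and filled symbols have an adjusted p below 0.05. SLC2A1 and GAPDH stay left of 0 and filled in all 3 BRM014 panels under both fits, and ENO1 in IMR-32 moves to 0 with the offset.

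RNA of the glucose transporter fell with BRM014 in all 3 lines. SLC2A1 encodes GLUT1, the basal glucose transporter of the plasma membrane. In KELLY it read 278 and 287 CPM with DMSO and 74.4 and 70.1 with BRM014. In IMR-32 the values were 108 and 121 against 47.2 and 54.2, and in SK-N-DZ 108 and 162 against 60.7 and 55.4. These BRM014 values rest on 35 and 42 counts in IMR-32 and 44 and 42 in SK-N-DZ. Vehicle and BRM014 libraries did not overlap in any line. The log2 change was -1.92 (SE 0.18, adjusted p = 7.7e-15 by edgeR) in KELLY, -1.12 (SE 0.23) in IMR-32 and -1.21 (SE 0.22) in SK-N-DZ, or 26.4%, 45.9% and 43.2% of the vehicle level. SLC2A1 still fell with the GC and length offset, by 1.72, 0.75 and 0.76 on the log2 scale. With auxin SLC2A1 read 134 and 133 CPM against 153 and 159.9 with ethanol, a log2 change of -0.23 (SE 0.18, adjusted p = 0.715 by edgeR).

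HK2, hexokinase 2, phosphorylates glucose and so traps it in the cell. It fell with BRM014 in IMR-32 from 676 and 631 to 412 and 424 CPM, and in SK-N-DZ from 162 and 144 to 73.1 and 73.9 CPM. With auxin it fell from 524 and 482 to 293 and 336 CPM. All 3 of these differences separated the libraries, with log2 changes of -0.59 (SE 0.13), -1.05 (SE 0.18) and -0.67 (SE 0.13), and the auxin change had an adjusted p of 0.000271 by edgeR. In KELLY the BRM014 libraries disagreed, 166 and 91.9 CPM against 174 and 179, and the log2 change of -0.41 missed the threshold (adjusted p = 0.0613). It passed with library totals (-0.45, adjusted p = 0.0314), with no count filter (-0.42, 0.0427) and with a replicate block (-0.43, 0.0253). Without KELLY BRM014 replicate 1 it was -0.91 and passed, and without KELLY BRM014 replicate 2 it was -0.04.

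The middle of the pathway differed by gene. PFKP is the platelet-type subunit of phosphofructokinase, the committed step. In SK-N-DZ it read 65.4 and 48.3 CPM with DMSO and 9.66 and 18.5 with BRM014, which rest on 7 and 14 counts. The log2 change was -1.99 (SE 0.40), and -1.39 with the GC and length offset. In KELLY PFKP read 37.1 and 42.1 CPM against 60.5 and 41.0, in IMR-32 50.1 and 47.9 against 45.8 and 24.5, and with auxin 58.1 and 35.4 against 52.5 and 57.4. None of these 3 differences passed the test. ALDOA, aldolase A, splits the hexose into trioses. It read 48.0 and 47.9 CPM in IMR-32 DMSO and 16.2 and 20.6 with BRM014, on 12 and 16 counts. In KELLY ALDOA went from 142 and 146 to 73.1 and 84.7 CPM, and in SK-N-DZ from 153 and 171 to 69.0 and 71.2. ALDOA fell in all 3 lines, by 1.32, 0.83 and 1.2 on the log2 scale, and in none with the GC and length offset (-0.74, -0.39 and -0.48, adjusted p = 0.174, 0.301 and 0.188 by edgeR). Leaving out BRM014 replicate 1 also ended its call in IMR-32 (adjusted p = 0.0639) and KELLY (0.0969). With auxin ALDOA read 47.9 and 46.5 against 53.1 and 79.3 CPM, which did not pass.

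Of the 4 genes from triose phosphate to pyruvate, 3 fell and 1 did not. GAPDH oxidises glyceraldehyde 3-phosphate and makes NADH. It read 505 and 503 CPM in IMR-32 DMSO against 167 and 241 with BRM014, 949 and 873 against 436 and 440.5 in KELLY, and 1003 and 987 against 364 and 426 in SK-N-DZ. With auxin it read 439 and 431 against 588 and 740.4 with ethanol. All 4 comparisons separated the libraries. The log2 changes were -1.25 (SE 0.12), -1.01 (SE 0.11), -1.32 (SE 0.11) and -0.61 (SE 0.11), so the BRM014 groups held 42.0%, 49.6% and 40.0% of the vehicle level and the auxin group 65.4%. With the offset the BRM014 changes were -0.69, -0.65 and -0.67, and GAPDH still fell in each. Without the library of ethanol replicate 2 the auxin change was -0.45 with an adjusted p of 0.0574 by edgeR. GENCODE 29 holds 62 genes named as copies of GAPDH, none of them among the gene rows. How reads that match a copy were counted is not stated, so reads from copies and gene may be mixed.

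PGK1, phosphoglycerate kinase 1, makes the first ATP of the pathway's payoff phase. It read 61.9 and 74.0 CPM with DMSO and 59.3 and 69.7 with BRM014 in IMR-32, 65.4 and 85.8 against 95 and 65.5 in KELLY, and 95.6 and 86.2 against 82.8 and 67.3 in SK-N-DZ. With auxin it read 75.5 and 63.3 against 81 and 90.3. No comparison passed. The mean log2 change over the 3 lines was -0.05 with a 95% interval of -0.34 to 0.24, and PGK1 overlaps ATP7A and PGAM4, whose reads may be mixed with its own.

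ENO1, enolase 1, and PKM, pyruvate kinase of muscle type, complete the pathway. ENO1 went from 209 and 218 to 131 and 156 CPM in IMR-32, from 483 and 472 to 289 and 282 in KELLY, and from 491 and 489 to 234 and 268 in SK-N-DZ. It fell by 0.52, 0.70 and 0.96 on the log2 scale. ENO1 fell in KELLY alone when the offset was used (-0.36), with 0.04 in IMR-32 (adjusted p = 0.936 by edgeR) and -0.31 in SK-N-DZ (adjusted p = 0.101). The IMR-32 call of ENO1 also ended without BRM014 replicate 1 (adjusted p = 0.141) and without DMSO replicate 2 (0.0562). PKM went from 569 and 602 to 357 and 360.0 CPM in IMR-32, from 417 and 419.9 to 197 and 243 in KELLY, and from 450.5 and 558 to 215 and 191 in SK-N-DZ. Its log2 changes were -0.66 (SE 0.12), -0.89 (SE 0.12) and -1.30 (SE 0.13). With the offset PKM fell in KELLY (-0.58) and SK-N-DZ (-0.67) and not in IMR-32 (-0.11, adjusted p = 0.642). With auxin PKM fell from 596 and 667 to 471 and 429 CPM, a log2 change of -0.49 (SE 0.11, adjusted p = 0.00302). Leaving out ethanol replicate 2 or auxin replicate 2 ended that call (adjusted p = 0.141 and 0.103). ENO1 with auxin read 188 and 177 against 225 and 231 CPM (log2 change -0.32, adjusted p = 0.239).

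At the fate of pyruvate the 2 members parted. LDHA, lactate dehydrogenase A, turns pyruvate into lactate. It fell from 417 and 418 to 248 and 235 CPM in IMR-32 and from 354 and 361 to 201 and 218 CPM in SK-N-DZ, log2 changes of -0.74 (SE 0.14) and -0.76 (SE 0.14). LDHA is GC-poor, and with the offset the changes were -0.80 and -0.86. In KELLY it read 148 and 229 CPM with DMSO and 174 and 145 with BRM014, groups that overlap. With auxin LDHA read 362 and 398 against 415 and 414 CPM and did not pass (log2 change -0.13, adjusted p = 0.799 by edgeR). PDK1, pyruvate dehydrogenase kinase 1, keeps pyruvate out of the mitochondrial dehydrogenase. It read 18.1 and 27.0 CPM in IMR-32 DMSO against 17.5 and 25.8 with BRM014, 25.8 and 17.0 against 31.2 and 20.5 in KELLY, and 51.6 and 39.1 against 44.1 and 29 in SK-N-DZ. Auxin and ethanol libraries of PDK1 overlapped too, at 44.3 and 21.1 against 22.6 and 24.4. Its mean log2 change over the 3 lines was 0.00 with a 95% interval of -0.45 to 0.46, and PDK1 rests on 13 to 82 counts per library.

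Taking the 3 lines with equal weight, 8 of 10 members fell with BRM014, all but PGK1 and PDK1, where 15.3% of tested genes fell and 14.8% rose. SLC2A1 fell most, by 1.42 on the log2 scale (SE 0.12), followed by GAPDH (-1.2, SE 0.07), ALDOA (-1.12, SE 0.16) and PKM (-0.95, SE 0.07). ENO1 (-0.73), HK2 (-0.68), PFKP (-0.67) and LDHA (-0.56) followed. With the GC and length offset 7 fell, where 1367 of all 12853 tested genes did: PFKP dropped out (-0.19, adjusted p = 0.586 by edgeR). PFKP also lost its call without SK-N-DZ BRM014 replicate 1 (-0.55, adjusted p = 0.061).

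Whether the lines differed in their response was tested directly. The BRM014 effect differed among the 3 lines for 2 of 10 members, PFKP and PKM, and for 6.47% of tested genes. PFKP had log2 changes of -0.43 in IMR-32, 0.41 in KELLY and -1.99 in SK-N-DZ (adjusted p = 0.00256 by edgeR), and the GC and length offset gave 0.0125 and the 18 other alternatives 0.000783 to 0.0458. For PKM (adjusted p = 0.0284) the call was lost in 7 alternatives, 5 of them with a library left out, with adjusted p up to 0.312 when SK-N-DZ DMSO replicate 2 was absent. SLC2A1 (adjusted p = 0.119), HK2 (0.208) and LDHA (0.0709) did not pass. SLC2A1 passed with the GC and length offset (0.0183) and without SK-N-DZ DMSO replicate 2 (0.0426). HK2 passed without KELLY BRM014 replicate 2 (0.00439). LDHA passed without that library (0.0284), without KELLY DMSO replicate 2 (0.0015) and with a replicate block (0.0422).

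Inhibition and degradation were compared in IMR-32 cells, with no shared libraries but with different agents, vehicles and versions of the line. The BRM014 effect minus the auxin effect was lower for 1 of 10 members, GAPDH, and higher for none, against 0.887% and 1.06% of tested genes. By an unadjusted p below 0.05 these were 3 and 0, and DESeq2 gave 1 lower and 0 higher. The GAPDH changes of -1.25 and -0.61 differed by -0.64 (SE 0.16, adjusted p = 0.0186 by edgeR). This difference was, with the GC and length offset, -0.17 (adjusted p = 0.76). The call was also lost without IMR-32 BRM014 replicate 1 (-0.43, adjusted p = 0.311), without IMR-32 DMSO replicate 1 (-0.64, adjusted p = 0.0604) and without ethanol replicate 1 (-0.52, adjusted p = 0.173). SLC2A1 differed by -0.90 (SE 0.29, adjusted p = 0.0948) and LDHA by -0.62 (SE 0.19, adjusted p = 0.0585). LDHA passed in 4 alternatives: library totals, no count filter, the replicate block and a fit of the compared groups alone (adjusted p = 0.0356, 0.0357, 0.0436 and 0.015). For HK2 the difference was 0.08 with a 95% interval of -0.28 to 0.44.

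Without BRM014 the lines differed in which members were high. In the DMSO libraries HK2 was far higher in IMR-32 (676 and 631 CPM) than in KELLY (174 and 179) or SK-N-DZ (162 and 144), a log2 difference of -2.04 (SE 0.14) for KELLY and -2.24 (SE 0.14) for SK-N-DZ, and these last 2 did not differ by the test (-0.19, adjusted p = 0.329 by edgeR). SLC2A1 was highest in KELLY, 1.15 above IMR-32 and 1.05 above SK-N-DZ on the log2 scale. IMR-32 and SK-N-DZ overlapped in SLC2A1. LDHA was lowest in KELLY, by 1.32 against IMR-32 and 0.95 against SK-N-DZ. PDK1 was higher in SK-N-DZ than in KELLY (log2 difference 1.07, SE 0.39), a call lost without KELLY DMSO replicate 2 or SK-N-DZ DMSO replicate 1 (adjusted p = 0.239 and 0.228).

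**Figure D3:**
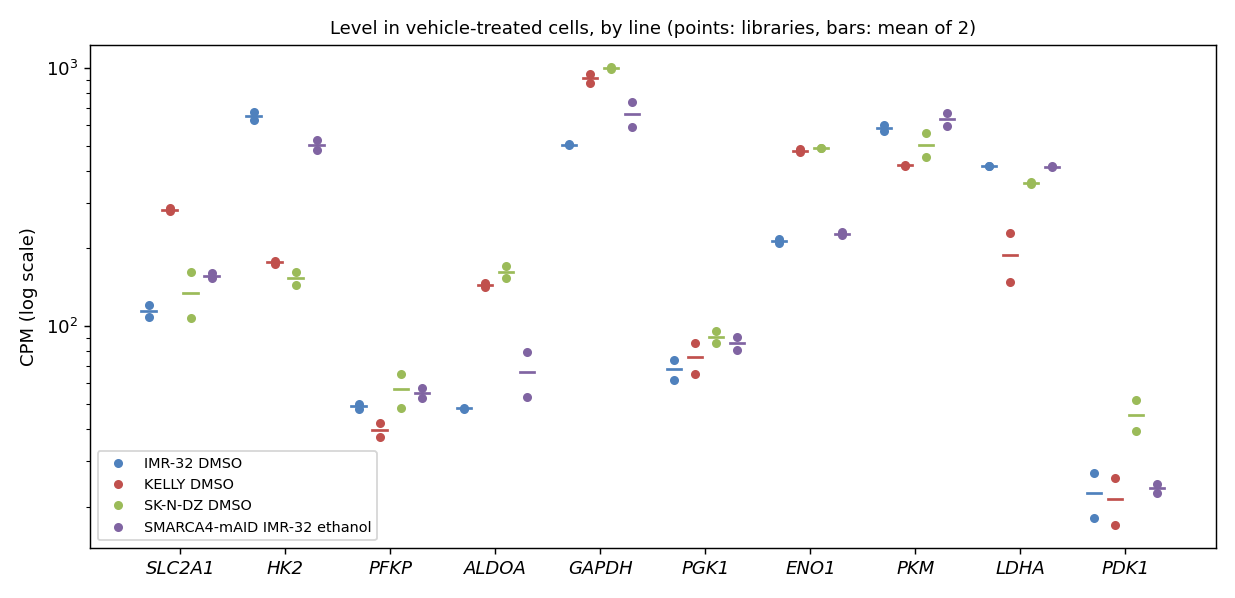
CPM (scaled gene counts, log axis) of each gene in vehicle-treated libraries of the 3 lines and the degron line: points are libraries and bars means of 2. HK2 is highest in IMR-32 and its degron derivative, SLC2A1 is highest in KELLY, and LDHA is lowest in KELLY.

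Over the whole set, 4 members were higher and 3 lower in KELLY than in IMR-32, against 18.1% and 21.6% of tested genes. In SK-N-DZ against IMR-32 it was 3 higher and 3 lower, against 21.2% and 22.9%, and in SK-N-DZ against KELLY 3 higher and 1 lower, against 16.6% and 15.2%. ALDOA, GAPDH and ENO1 were higher in KELLY and SK-N-DZ than in IMR-32, with log2 differences of 1.43, 0.70 and 1.01 for KELLY. For SK-N-DZ they were 1.61, 0.84 and 1.06. With the GC and length offset the SK-N-DZ differences were 0.51, -0.02 and 0.21 and none passed, while in KELLY GAPDH (0.18) lost its call and ALDOA (0.72) and ENO1 (0.52) kept theirs. PKM was lower in KELLY (-0.64) and in SK-N-DZ (-0.35) than in IMR-32, and the SK-N-DZ value with library totals as the scale was -0.21 (adjusted p = 0.114). With the offset that PKM difference was larger, at -1.15. With those totals the median of all genes shifted to 0.17 in both comparisons with IMR-32. LDHA was lower in SK-N-DZ than in IMR-32 too (-0.37), a call lost with those totals (adjusted p = 0.146), with the offset (0.666) and without either IMR-32 DMSO library (0.0623 and 0.0533). PKM lost its SK-N-DZ call without IMR-32 DMSO replicate 2 (0.0616) or SK-N-DZ DMSO replicate 1 (0.157). PFKP and PGK1 did not pass in any of the 3 pairs of lines, but with the offset PFKP was lower in KELLY (-0.84) and PGK1 higher in SK-N-DZ (0.66) than in IMR-32. PFKP in SK-N-DZ against IMR-32 turned from 0.07 to -0.66 with it and did not pass (adjusted p = 0.0959 by edgeR). PDK1 in SK-N-DZ against IMR-32 missed the threshold (0.88, adjusted p = 0.0626 by edgeR) and passed with the offset (1.49), with library totals (1.02, adjusted p = 0.0284) and with the compared groups alone (0.87, adjusted p = 0.0288). PKM was higher in SK-N-DZ than in KELLY (0.28, adjusted p = 0.0434), a call lost in 8 alternatives, the offset (-0.10) among them. ENO1, not called there, was -0.32 with the offset (adjusted p = 0.0309). The vehicle libraries used here are also the controls of the treatment comparisons.

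The degron line with ethanol was compared with IMR-32 with DMSO. HK2 was lower (524 and 482 against 676 and 631 CPM, log2 difference -0.41, SE 0.13) and GAPDH higher (588 and 740.4 against 505 and 503 CPM, 0.37, SE 0.11), so 1 member was lower and 1 higher against 3.49% and 2.67% of tested genes. HK2 lost its call when any of the 4 libraries was left out (adjusted p = 0.0779 to 0.366), and GAPDH when any of 3 was (0.122 to 0.521). HK2 also lost it with library totals (-0.38, adjusted p = 0.05) and with DESeq2 (-0.40, 0.0914), and GAPDH with the GC and length offset (0.21, 0.299 by edgeR). Vehicle and engineering cannot be told apart in this comparison.

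Levels of different genes were compared per kilobase of transcript. In IMR-32 DMSO the order was GAPDH (269 CPM per kb), PKM (215), LDHA (173), HK2 (113), ENO1 (91.1), SLC2A1 (31.3), ALDOA (29.9), PFKP (18.5), PGK1 (13.9) and PDK1 (1.59). SLC2A1 and ALDOA, neighbours in that order, differ by less than the spread of SLC2A1 between libraries. In KELLY GAPDH (486) and ENO1 (204) led, and in SK-N-DZ GAPDH (531), ENO1 (209) and PKM (186). This order depends on the transcript taken for each gene and on the part of it that was counted, which is not stated. Over the shortest listed forms in IMR-32 DMSO, LDHA would be at 2962 CPM per kb, above GAPDH (464) and PKM (324), and SLC2A1 (212) would be above HK2 (124) and ENO1 (119.9). PDK1 rests on an annotated transcript of 14193 bases and would be at 14.9 CPM per kb over its shortest form of 1515 bases, still the lowest of the 10.

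Other genes of glycolysis moved less uniformly. Of 20 further glycolytic enzymes 15 were tested; 2 fell and 1 rose in IMR-32, 2 fell and 1 rose in KELLY, 3 fell in SK-N-DZ and 1 fell with auxin. Their median log2 change was -0.30, -0.38, -0.38 and 0.09. Of all tested genes 6.57%, 4.98%, 9.55% and 1.16% fell in the same order, and 6.26%, 6.57%, 9.88% and 1.03% rose. PFKFB3, which makes the activator of phosphofructokinase, fell in all 4 comparisons: -0.90 in IMR-32, -2.43 in KELLY, -1.0 in SK-N-DZ and -0.99 with auxin. Its KELLY value rests on few counts, 11 and 16 with DMSO and 3 and 2 with BRM014. TPI1, triose phosphate isomerase, fell in IMR-32 (-1.49) and SK-N-DZ (-1.38). ENO2, the neuronal enolase, fell in SK-N-DZ (-0.85) and ADPGK, a glucokinase that uses ADP, in KELLY (-0.78). PFKFB2, of the same family as PFKFB3, rose in IMR-32 from 1.39 and 7.84 to 25.6 and 34.8 CPM. LDHB, the partner of LDHA that favours the return to pyruvate, rose slightly in KELLY (0.34). With the GC and length offset PFKFB3 lost its call in IMR-32 (-0.49) and SK-N-DZ (-0.50), ENO2 in SK-N-DZ (-0.40) and LDHB in KELLY (adjusted p = 0.0513 by edgeR), and the list medians were 0.07, -0.01, -0.01 and 0.14. TPI1 still fell in both lines with it (-1.03 and -0.85). HK1, hexokinase 1, was not called in the fit without the offset and rose with it in IMR-32 (0.75, adjusted p = 0.0342 by edgeR) and KELLY (0.79, adjusted p = 0.0342 by edgeR). The list then had 1 lower and 2 higher in IMR-32, 2 lower and 1 higher in KELLY, 1 lower in SK-N-DZ and 1 lower with auxin. With library totals 3 fell and 0 rose in KELLY, so LDHB was not called there.

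Routes that branch from glycolysis were counted in the same way. Of all tested genes 6.57% fell in IMR-32, 4.98% in KELLY, 9.55% in SK-N-DZ and 1.16% with auxin. The shares that rose were 6.26%, 6.57%, 9.88% and 1.03%. Of 17 tested transporters and genes of pyruvate entry 0 fell in each of the 4 comparisons in the edgeR fit without the offset (unadjusted p below 0.05 for 1, 2, 1 and 1, DESeq2 0, 1, 0 and 0), and 2, 2, 1 and 0 rose. SLC16A7, a monocarboxylate transporter, rose in SK-N-DZ (1.11), IMR-32 (0.92) and KELLY (0.89), and in none with the GC and length offset (0.47, 0.54 and 0.40). SLC16A1, the lactate transporter MCT1, rose in KELLY (0.33), and MPC2, a subunit of the mitochondrial pyruvate carrier, in IMR-32 (1.85). The MPC2 value rests on 5 and 12 counts with DMSO and 18 and 18 with BRM014. Neither SLC16A1 nor MPC2 passed with the offset (adjusted p = 0.387 and 0.0567 by edgeR). With the offset 2 genes fell in KELLY, the dehydrogenase phosphatase PDP1 (-0.71, adjusted p = 0.00477 by edgeR) and the dehydrogenase subunit PDHA1 (-1.08, adjusted p = 0.0403 by edgeR), and 1 in SK-N-DZ, the phosphatase PDP2 (-0.55, adjusted p = 0.0292 by edgeR). With median-of-ratios factors and with library totals 1 fell in KELLY. Of 7 genes of the pentose phosphate pathway, TKT (-1.51) and PGD (-1.11) fell in SK-N-DZ, where 9.55% of all tested genes did, and 0 in the other comparisons by edgeR (unadjusted p below 0.05 for 3 in IMR-32, 2 in KELLY and 1 with auxin, DESeq2 1 in KELLY). With library totals 1 fell in IMR-32 and 1 in KELLY, and with median-of-ratios factors 1 in KELLY. Of 18 genes of the tricarboxylic acid cycle 3 fell in IMR-32, 1 in KELLY, 1 in SK-N-DZ and 0 with auxin by edgeR (unadjusted p below 0.05 for 2, DESeq2 0), against 6.57%, 4.98%, 9.55% and 1.16% of all tested genes. CS, citrate synthase, fell in IMR-32 (-0.80) and SK-N-DZ (-0.75), FH (-0.83) and OGDH (-2.00) in IMR-32, and IDH3A in KELLY (-1.14). The OGDH value rests on 40 and 38 counts with DMSO and 6 and 5 with BRM014. With the offset 3 fell in SK-N-DZ, FH (-0.81) and IDH3A (-0.84) besides CS. With median-of-ratios factors, library totals and DESeq2 2 fell in KELLY, and with library totals and a replicate block 2 in SK-N-DZ.

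Hypoxia-inducible genes outside glycolysis rose more often than they fell in IMR-32 and SK-N-DZ. Of 14 tested, 5 rose and 1 fell in IMR-32, 1 rose and 1 fell in KELLY, 6 rose and 2 fell in SK-N-DZ, and 1 rose and 0 fell with auxin by edgeR (1 fell at an unadjusted p below 0.05, 0 by DESeq2). Their median log2 change was 0.46, 0.27, 0.65 and 0.55. Of all tested genes 6.26%, 6.57%, 9.88% and 1.03% rose in the same order, and 6.57%, 4.98%, 9.55% and 1.16% fell. In KELLY the counts of the list were near those shares. ADM, the peptide adrenomedullin, rose from 4.17 and 10.5 to 44.5 and 38.7 CPM in IMR-32 and from 105 and 144 to 383.5 and 345.5 CPM in SK-N-DZ. It had no count in KELLY, and with auxin it went from 0 and 0 counts to 3 and 11, at least 4.91-fold higher with 3 counts over both libraries taken as the floor. KDM3A, a histone demethylase, rose in all 3 lines (0.58, 0.87 and 0.71). EGLN1, the oxygen sensor PHD2, rose in IMR-32 (0.79) and SK-N-DZ (0.84), as did MXI1, an antagonist of MYC proteins (0.88 and 0.78). DDIT4, an inhibitor of mTORC1 signalling, rose in IMR-32 (1.63), and P4HA1, a collagen prolyl hydroxylase, in SK-N-DZ (1.57). VEGFA, the angiogenic growth factor, fell in all 3 lines: 52.2 and 35.7 CPM against 6.74 and 18.1 in IMR-32, 119.5 and 82.5 against 35.2 and 33.1 in KELLY, and 47.2 and 54.6 against 15.2 and 3.96 in SK-N-DZ. The other gene that fell in SK-N-DZ, EGLN3, another oxygen sensor, had 3 and 10 counts with DMSO and 0 with BRM014, at least 1.93-fold lower. EGLN3 is named outside the rule, after its values were seen, and it was not called with the offset (adjusted p = 0.0602 by edgeR); DESeq2 called 1 gene of the list lower there. With the GC and length offset 4 rose in IMR-32, 1 in KELLY and 6 in SK-N-DZ; KDM3A in IMR-32 did not pass (adjusted p = 0.064 by edgeR), and DDIT4 rose in SK-N-DZ (1.36) and with auxin (1.03), where it had not been called without the offset.

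**Figure D4:**
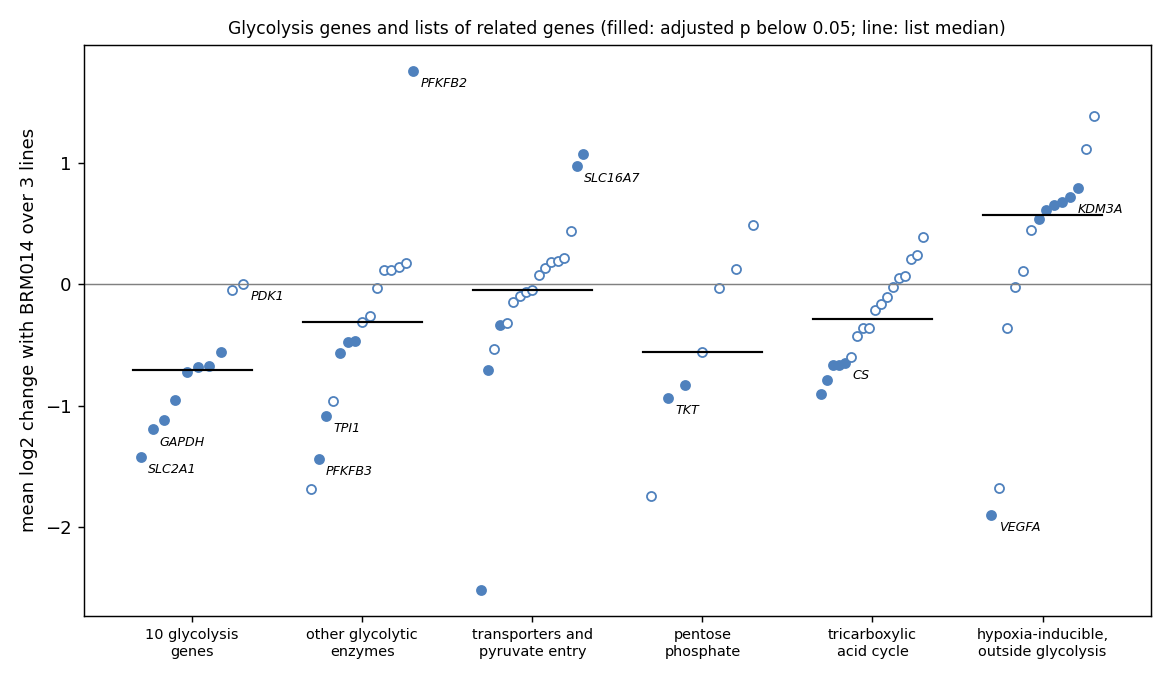
Mean log2 change with BRM014 over the 3 lines for the 10 glycolysis genes and 5 lists of related genes: each point is a gene, filled at an adjusted p below 0.05, and lines are list medians. The glycolysis genes sit at or below 0, with a median of -0.70, and most filled points of the hypoxia-inducible list sit above 0, with VEGFA far below.

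Known regulators of glycolytic genes gave mixed changes. Of 10 tested, 4 rose and 2 fell in IMR-32, 1 rose and 3 fell in KELLY, 3 rose and 3 fell in SK-N-DZ, and 2 rose with auxin. Of all tested genes 6.26%, 6.57%, 9.88% and 1.03% rose in the same order, and 6.57%, 4.98%, 9.55% and 1.16% fell. PPARGC1A, a coactivator of mitochondrial genes, fell in IMR-32 (-1.35) and KELLY (-0.94). MYCN, the amplified MYC family gene of these lines, fell in IMR-32 (-0.45) and KELLY (-0.52) and rose in SK-N-DZ (0.44). A part of MYCN in the members' changes was not tested. MYCN was, with the offset, at 0.04 in IMR-32, -0.24 in KELLY and 0.99 in SK-N-DZ, so the IMR-32 call was lost (adjusted p = 0.783 by edgeR). With auxin MYCN was not called (0.15) and rose with the offset (0.25, adjusted p = 0.00781 by edgeR). HIF1A, the oxygen-regulated subunit of HIF-1, rose in IMR-32 (0.43) but not with the offset (0.25, adjusted p = 0.224 by edgeR), and its log2 change was 0.19 in KELLY, -0.04 in SK-N-DZ and -0.19 with auxin. Its partner ARNT rose in IMR-32 (0.80), SK-N-DZ (0.74) and with auxin (0.65). EPAS1, which encodes HIF-2 alpha, rose in SK-N-DZ (1.93), IMR-32 (1.97) and KELLY (0.39, adjusted p = 0.0479 by edgeR). In IMR-32 it rests on few counts, 3 and 4 with DMSO and 5 and 11 with BRM014. EPAS1 was the 1 regulator called higher in KELLY, and 0 were with median-of-ratios factors, library totals or a replicate block. With the offset EPAS1 rose there by 0.50. TXNIP, a suppressor of glucose uptake, rose in IMR-32 (0.42) and with auxin (0.57) and fell in KELLY (-1.09) and SK-N-DZ (-0.52).

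The members did not share 1 pattern over the 8 labelled groups. Across group means, ALDOA and ENO1 had a Pearson r of 0.95, ALDOA and GAPDH of 0.90 and PKM and LDHA of 0.85, while HK2 and ALDOA had -0.54 and PDK1 stood apart from the mean of the 10 at 0.02. The mean of the centred log2 levels was lowest in SK-N-DZ BRM014 (-0.60), IMR-32 BRM014 (-0.42) and KELLY BRM014 (-0.31), and 0.08 with auxin. Among 6873 other genes that varied enough, those most like this mean were PEBP1 (r = 0.98), CAMKV (0.97), SCG2 (0.97), UHRF1 (0.97), RPL28 (0.97) and ADCY9 (0.96). Those most opposite were ZCCHC2 (-0.97), CREBRF (-0.96) and NAP1L5 (-0.95). These are descriptions over 8 group means that share libraries and depth.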

How the data were processed

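New RNA was measured in 16 labelled and 2 unlabelled libraries. The deposited values are whole-number counts, 1 row a gene, called conversion counts by the authors, with no normalization; HISAT, HTSeq, DESeq2 and hg38 stand in the submitters' processing notes. Not given in the sources used here are the counting rule, the annotation and the use of strand, so reads of overlapping or antisense genes (SLC2A1-AS1, ENO1-AS1, ATP7A, PGAM4) and of processed copies may be mixed with the members. Per the labels' protocols, RNA was treated with iodoacetate and captured on poly(dT). Few counts arose without 4sU, so uridine content (19.2% to 30.8% in the members' transcripts) could affect levels between genes. Summary lines were kept out of library sizes; reads with no feature made up 46.4% to 57.4% of labelled libraries.

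CPM use gene-row totals. Groups and replicate numbers came from the sample labels. edgeR 4.0.16 in R 4.3.3 fitted group means over the 16 labelled libraries (TMM factors, filterByExpr, 8 residual degrees of freedom, coefficient of variation 0.143); calls are at a Benjamini-Hochberg adjusted p below 0.05. The script was also run on simulated counts with 200 changed genes and no trend by GC content, so that run did not test the GC effect. Alternatives were median-of-ratios factors, library totals, no filter, DESeq2 1.42.0, a replicate block, compared groups alone, leaving out each library, and an offset from a smooth of GC content and length (mgcv 1.9.3, GENCODE 29 transcripts), which covered 97.4% of tested genes. Every member is named in each treatment comparison. From other lists the rule was up to 5 called genes with the smallest p per comparison, plus MYCN and HIF1A. More were named from the hypoxia-inducible list and fewer in some comparisons, and some genes are named for a call with the offset only. For pattern likeness the 6 highest and 3 lowest r are named, among genes whose highest group mean reached 50 counts and whose SD over groups reached 0.3. The members and lists were chosen with earlier results of these data known. One further adrenergic marker is not reported here.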

Additional observations from a re-analysis of the deposited data

Results flagged for a closer look

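The BRM014 effect on PFKP differed among the 3 lines by the 2-parameter test of equal effects (adjusted p = 0.00256 by edgeR), with a fall in SK-N-DZ and no call in IMR-32 or KELLY. PKM met the same test with an adjusted p of 0.0284, with its smallest change in IMR-32 and its largest in SK-N-DZ; this call was lost in 7 alternatives (adjusted p up to 0.312 by edgeR). In IMR-32 cells the GAPDH change with BRM014 was larger than the change with auxin (a difference of -0.64, adjusted p = 0.0186 by edgeR); with the GC and length offset the difference was -0.17 (adjusted p = 0.76), and the call was also lost with any of 3 libraries left out.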

How the results depend on the processing

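Replicate numbers did not pair the libraries: deviations of same-numbered libraries correlated at 0.01 in IMR-32, -0.04 in KELLY, 0.02 in SK-N-DZ and -0.02 in the degron line, over 9040 genes. With the replicate block 2 members were lower in the BRM014 effect of IMR-32 minus the auxin effect, as with library totals, with no filter and with the compared groups alone, against 1 in the fit reported and 0 with the GC and length offset. The block also gave HK2 a call in KELLY (-0.43) and LDHA one among the lines (adjusted p = 0.0422), and ended that of EPAS1 in KELLY.

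The offset gave 4 members in IMR-32, and turned ENO1 there to 0.036, GAPDH in SK-N-DZ against IMR-32 DMSO to -0.021, and ENO1 and PKM in SK-N-DZ against KELLY DMSO to -0.32 and -0.10. Among lines, the compared groups alone gave 1 member. For the degron line against IMR-32 vehicle, library totals, DESeq2 and the offset gave 1 each. Leaving out a library gave 1 to 3 members with auxin, 1 to 4 among lines, 0 to 1 for BRM014 minus auxin, 2 to 3 for SK-N-DZ against KELLY DMSO and 0 to 1 for the degron line. Over all genes it gave 922 to 1110 calls in IMR-32 (1650 with all libraries), 872 to 1160 in KELLY (1485), 1622 to 1893 in SK-N-DZ (2498), 131 to 158 with auxin (281), 140 to 201 for BRM014 minus auxin (250) and 372 to 485 for the degron line (792). Library totals moved the share of higher calls from 45.6% to 56.4% in KELLY against IMR-32 DMSO and from 54.4% to 44.2% in BRM014 minus auxin, where the offset gave 66.5%. The causes were not tested. PDK1, PFKP, ALDOA, SLC2A1 and PGK1 rest on 60 counts or fewer in each of the shallow BRM014 libraries, as does HK2 in those of SK-N-DZ.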
